A study of Caenorhabditis elegans with 4 samples.

Results

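Among the regions bound by the C. elegans transcription factor CEH-39 in embryos, a small class was called narrower than the rest. Of the 2515 regions in the combined list, 239 (9.50%, 95% Wilson interval 8.42 to 10.7%) were narrower than the 464 bp that 2275 regions share, and 1 region was wider. Members were chosen by width alone, so their widths, and the scores and ranks that the same calls gave them, are described here and not tested. The animals were of strain OP169, with the genotype unc119(ed3) and the integrated transgene wgIs169, which expresses ceh-39 fused to TY1, EGFP and FLAG tags and also carries unc119. The transgene was introduced by bombardment, and males and hermaphrodites were mixed and grown at 20 degrees Celsius. The series comprised 2 ChIP libraries and 2 input libraries of the same strain and stage. Region lists were used for both ChIP replicates, together with a combined list, while input was not analysed here. No untagged strain is among the samples, and whole embryos were used, so binding in few cells and weak binding in many cannot be told apart. Nothing in the labels ties the replicates to separate cultures, so differences between them may be technical.

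CEH-39 belongs to the ONECUT family of transcription factors, which bind DNA through a cut domain and a homeodomain. Its gene lies on X, and it is known as an X signal element, a factor whose dose helps the embryo count its X chromosomes by acting on the sex-determination switch gene xol-1. In chromatin immunoprecipitation followed by sequencing (ChIP-seq), a factor's site appears as a pile of fragments, and the caller reports an interval around it whose width depends on the shape of the pile and on the caller's own rules. All lists name the SPP caller and the irreproducible discovery rate, a comparison of replicate ranks, as their source. The sequences and genes under the regions were not analysed here, because no genome or annotation of the WormBase WS220 build was used, so all positions below are given without gene names.

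The narrow regions stood at the head of the combined list. All of the first 25 regions by rank were narrow, as were 24 of the next 25 and 43 of those at ranks 51 to 100. The share was 59.0% (49.2 to 68.1%) at ranks 101 to 200 and 40.0% (30.9 to 49.8%) at ranks 201 to 300. It was 17.5% (12.9 to 23.4%) at ranks 301 to 500, and 10 narrow regions stood among the 491 at ranks 501 to 991. Beyond rank 991 there were 3 in 1524 regions. The best rank of a region of the usual width was 45. The median rank was 142 for narrow regions (quartiles 62.5 and 254.5) and 1375 for regions of the usual width (804.5 and 1944.5).

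Ranks follow the authors' score, which has no named unit, and then the number in the region's name. The score alone does not order the head of the list, because 991 regions share its highest value. Of the narrow regions 236 of 239 had that value, and so had 754 regions of the usual width. The order among them therefore rests on the number in the name.

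**Figure D1:**
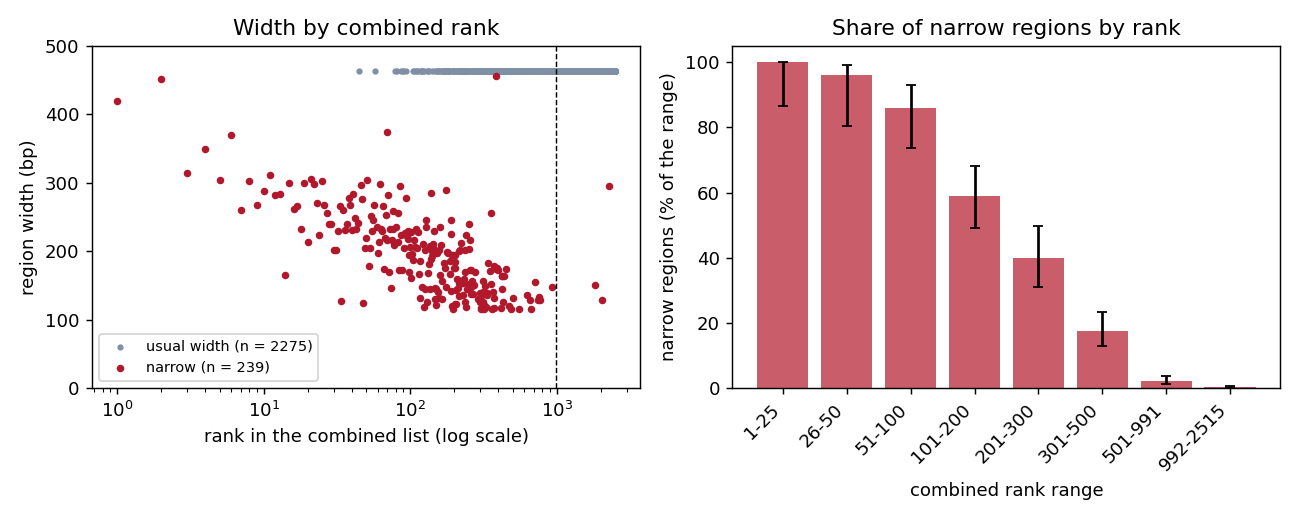
Left, width in bp of each narrow and usual-width combined region against its rank on a log axis, with a dashed line after rank 991, where the tied scores end. Right, the share of narrow regions in each rank range with 95% Wilson intervals. The first 25 regions are all narrow, and 3 narrow regions lie to the right of the dashed line.

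Within the class the wider regions ranked better. The widths ran from 116 to 456 bp with a median of 194 (quartiles 146 and 234), and 192 regions were below 250 bp. At ranks 1 to 25 the median width was 298 bp, at ranks 101 to 200 it was 187, at ranks 201 to 300 it was 154, and beyond rank 500, down to 991, it was 129.5. Across the 239 regions Spearman's rho between width and rank was -0.71, where a negative value means that a wider region stood nearer the head of the list. The regions share libraries and a caller, so this correlation is a description. The width therefore did not pass gradually into 464 bp down the list. It narrowed towards 116 bp while regions at exactly 464 bp took over.

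The upper end of the width range was set by the choice of members, so only the lower end describes the regions. The narrowest width, 116 bp, is 25% of the usual 464 bp, and 7 regions had it. In replicate 1 the narrowest region, at 115 bp, was likewise 25% of that list's usual 460 bp. In replicate 2 the narrowest, at 126 bp, was 30.3% of the usual 416 bp. Just inside the limit of 464 bp were regions of 456 and 452 bp, both on chromosome V, at combined ranks 383 and 2. Next below them were 420 bp at rank 1 and 374 bp. Just outside were the 2275 regions of exactly 464 bp and a region of 471 bp on chromosome I at 2334789 to 2335259, of combined rank 938. Few members lay near the limit, since 234 of the 239 were below 350 bp.

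The best region of each chromosome shows how the lists treated the same place. On chromosome II the region at 11979639 to 11980058, first in the combined list, was 420 bp wide there, 429 bp in replicate 1 (rank 4) and 166 bp in replicate 2 (rank 3). On V the region at 9344137 to 9344588, of combined rank 2, was 452 bp wide, against 146 bp in replicate 2 (rank 1). In replicate 1 it was 496 bp wide (rank 11), which is above that list's usual width, so the same locus was narrow in 2 lists and wide in the other. On chromosome I the best was at 6799516 to 6799829 (combined rank 3), 314 bp wide in the combined list, 343 bp in replicate 1 and 416 bp, the usual width, in replicate 2.

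The best narrow region on chromosome III, at 10758955 to 10759258 (combined rank 5), was 304, 331 and 151 bp wide in the combined, replicate 1 and replicate 2 lists. That on IV, at 4749933 to 4750192 (combined rank 7), was 260, 274 and 126 bp wide. Both were thus narrow in every list, with replicate 2 the narrowest. On X the best, at 1856291 to 1856455 (combined rank 14), was 165 bp wide, 232 bp in replicate 1 and at the usual 416 bp in replicate 2. Its centres in the 2 replicates lay 152 bp apart, against 2.5 to 29 bp for the first 10 combined regions except that on V, at 68 bp.

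The remaining regions among the first 10 were 267 to 370 bp wide. Those at 8059445 to 8059793 and 9988781 to 9989150 on chromosome I were 349 and 370 bp wide, at combined ranks 4 and 6. The chromosome III region at 5958142 to 5958443 (rank 8) was 302 bp wide and stood first in replicate 1, where it measured 350 bp. The chromosome II regions at 8787383 to 8787649 (rank 9) and 10563368 to 10563655 (rank 10) were 267 and 288 bp wide. In replicate 2 the first of these had the usual width and the second measured 133 bp.

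Narrow calls were shared mainly with replicate 1. Each narrow combined region shared at least 1 bp with a replicate 1 region. For 231 of the 239 (96.7%, 93.5 to 98.3%) the best-ranked such region was also below that list's usual width. Among usual-width combined regions this share was 7.12%, and 17.8% among those with the highest score. At ranks 1 to 100 it was 62.5% of 8 usual-width regions, against 97.8% for narrow ones. It was 64.2% against 96.4% at ranks 101 to 250, and 23.6% against 94.1% at ranks 251 to 500. Only 10 members overlapped a narrow replicate 2 region. Narrow calls numbered 391 in the 30000 regions of replicate 1 (1.30%) and 9 in the 19048 of replicate 2 (0.0472%), so replicate 2 had few to share. The 9 narrow replicate 2 regions stood at ranks 1 to 27 of that list, and every one overlapped a narrow combined region. The members number 10 because the V region of rank 1 in replicate 2 was overlapped by 2 combined regions.

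Widths in the combined list followed those in replicate 1 from below. Over the 231 members that were narrow in both, the median width was 196 bp in the combined list and 231 bp in replicate 1. The combined region was the narrower in 218, the wider in 12 and equal in 1, with a median difference of -37 bp (combined minus replicate 1). Spearman's rho between both widths was 0.80 over these regions, which may share reads. Against replicate 2 the order was the other way. In all 10 members narrow there, the combined region was the wider, by a median of 167.5 bp.

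**Figure D2:**
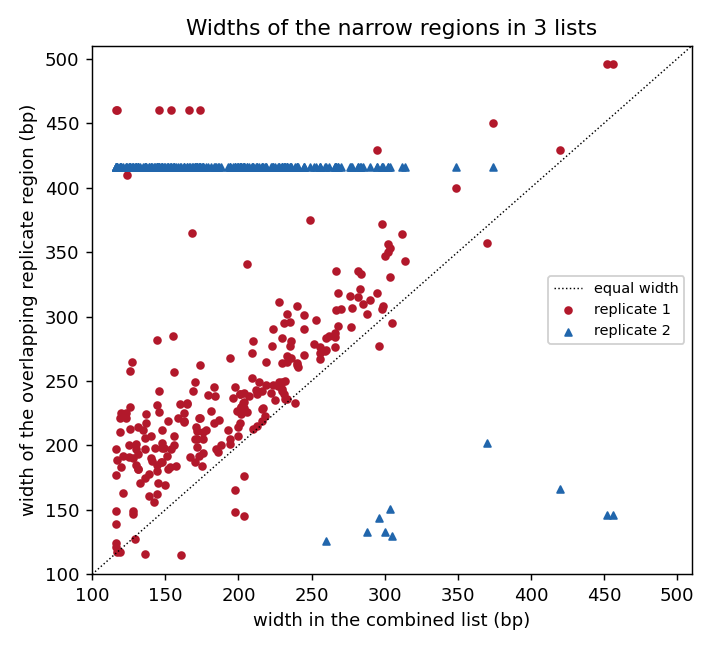
Width in bp of the overlapping region in replicate 1 (circles) and replicate 2 (triangles) against width in the combined list, for the narrow combined regions. Most replicate 1 points lie a little above the dotted line of equal width, while all but 10 replicate 2 points lie at the usual 416 bp.

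The 8 members that were not narrow in replicate 1 had high ranks in replicate 2. Those other than the overlapping pair on V were at the usual 460 bp in replicate 1. The X region at 13700695 to 13700868 (combined rank 66) had rank 158 in replicate 1 but 10 in replicate 2. The chromosome IV region at 11026104 to 11026269 (combined rank 115) ranked 269 and 37, and the X region at 16681939 to 16682084 (combined rank 211) ranked 469 and 36. The rest were the IV region at 14767806 to 14767959 (ranks 464 and 73), the X region at 9465761 to 9465877 (629 and 40) and the IV region at 11635768 to 11635883 (584 and 185). All 6 ranked better in replicate 2, and all lay on IV or X. Their replicate 1 ranks fall among the 1332 regions tied at that list's highest score. Over the class, 150 of the 233 members found in both replicates ranked better in replicate 1, or 67 with tied scores averaged. Of all 239 members, 41 lay on IV and 40 on X.

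Read in the other direction, replicate 1 held more narrow regions than the combined list. Of its 391, 232 (59.3%) had a narrow region as their best-ranked overlap in the combined list, 148 (37.9%) a region of the usual width and 11 (2.81%) no overlap. These outcomes differed with the width in replicate 1. Of the replicate 1 regions below 150 bp, 13 of 87 (14.9%, 8.95 to 23.9%) were narrow in the combined list. The share was 46 of 108 (42.6%, 33.7 to 52.0%) from 150 bp to below 200 bp, 91 of 109 (83.5%, 75.4 to 89.3%) from 200 bp to below 250 bp and 82 of 87 (94.3%, 87.2 to 97.5%) from 250 bp upwards. Replicate 1 rank moved along with width, with medians of 444, 306, 162 and 48 in these ranges, and the part of each was not tested. Replicate 2 rank differed within width ranges as well. Where the combined region was narrow, the median replicate 2 rank was 360, 464, 331 and 143 in these ranges. Where it had the usual width, the median was 1142, 1550.5, 827 and 2267. The usual-width groups held 70, 59, 14 and 5 regions, so the last medians rest on few. Regions without a replicate 2 match have no rank and are left out of these medians.

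Most narrow regions were found in both replicates. Both were overlapped by 233 of 239 (97.5%, 94.6 to 98.8%), against 1979 of 2275 regions of the usual width (87.0%, 85.5 to 88.3%). Since narrow regions rank high, a closer comparison is with the 754 regions of the usual width that also have the highest score. Of these, 717 (95.1%, 93.3 to 96.4%) were found in both. The intervals of this share and of that in the 236 narrow regions with the same score (97.5%, 94.6 to 98.8%) overlap. This depends on the length of the replicate lists. With each replicate list limited to its best 2515 regions, 206 of these 236 narrow regions (87.3%, 82.4 to 90.9%) and 519 of the 754 others (68.8%, 65.4 to 72.0%) were found in both. How the combined list was made is unknown, and a list drawn from these libraries would overlap them in part by construction.

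The 6 narrow regions found in replicate 1 alone were narrow there as well. The best placed lay on chromosome I at 12039880 to 12040109, was 230 bp wide, and ranked 32 in the combined list and 10 in replicate 1. On IV were regions at 3294705 to 3294825 (combined rank 321), 3338821 to 3339003 (rank 341) and 17333585 to 17333712 (rank 750), with replicate 1 ranks of 181, 198 and 273. On II were regions at 11537302 to 11537417 (rank 485) and 11759322 to 11759469 (rank 926), with replicate 1 ranks of 295 and 504. No narrow region was found in replicate 2 alone.

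In the rank ranges that hold many regions of both classes, replicate 1 and replicate 2 placed them in different order. The replicate 1 medians for ranks up to 991 fall among the 1332 regions that share that list's highest score. Their order therefore rests on the numbers in the names. Ranks 101 to 250 hold 83 narrow regions and 67 of the usual width. There the median replicate 1 rank was 165 for narrow regions (quartiles 125.5 and 221) and 205 for the others (153.5 and 266). The median replicate 2 rank was 317 (113.5 and 709) and 236 (139 and 766.5). At ranks 251 to 500 the medians were 315 and 417 in replicate 1 and 836 and 686.5 in replicate 2, for 51 narrow and 199 usual-width regions. The quartiles of both classes overlapped in each of these comparisons. Narrow regions stood a little nearer the head within each range too, with median combined ranks of 163 against 184 and 323 against 390. At ranks 1 to 100, with only 8 usual-width regions, narrow regions had the better median in both replicates, at 46.5 against 99.5 in replicate 1 and 82 against 152 in replicate 2. The same held for the 3 narrow regions beyond rank 991 (801 against 1783, and 1400 against 2650). Of these, the II region at 11980060 to 11980354 took replicate 1 rank 4 from a region centred 356 bp away. The others ranked 801 and 2767 in replicate 1, so the better median there rests on that match. At ranks 501 to 991, with 10 narrow regions, the medians were 527.5 against 774 in replicate 1 and 3445 against 1316 in replicate 2.

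Over all members the median rank was 138 in replicate 1 (quartiles 60.5 and 261.5) and 238 in replicate 2 (74 and 806), so the spread was wider in replicate 2. The order of these medians depends on the tied scores, because 1332 regions share the highest score in replicate 1 and 112 in replicate 2. With tied scores given their average rank the medians were 666.5 in replicate 1 and 238 in replicate 2. The better rank was then in replicate 1 for 67 of the 233 regions found in both and in replicate 2 for 166. With ties ordered by the number in the name it was in replicate 1 for 150. All other ranks given here, above and below, use the number. Width in the combined list followed rank more closely in replicate 1 (rho -0.72 over 239 regions) than in replicate 2 (-0.42 over 233). Within the class, the ranks in both replicates were only loosely related, with a rho of 0.30 over 233 regions. Combined rank had a rho of 0.88 with replicate 1 rank and 0.61 with replicate 2 rank. All of these are descriptions across regions of the same libraries.

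**Figure D3:**
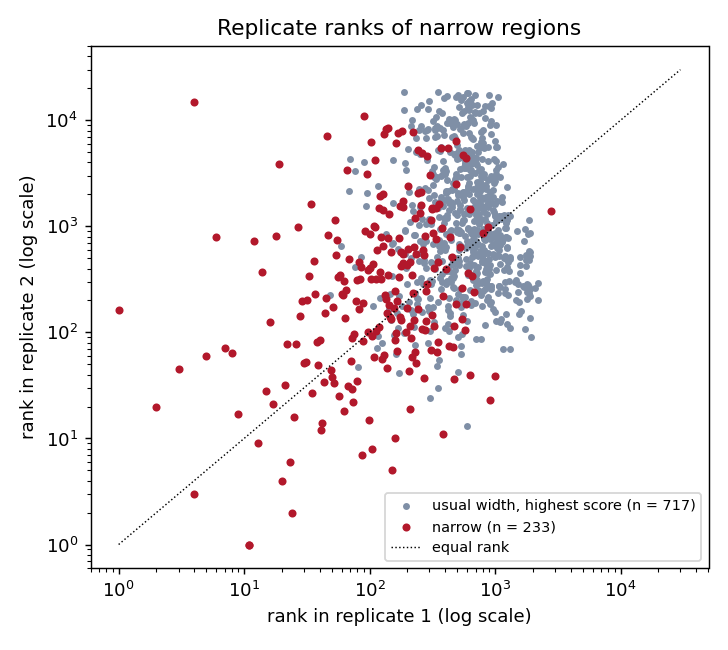
Rank in replicate 2 against rank in replicate 1, both on log axes, for the 233 narrow regions found in both and the 717 usual-width regions with the highest combined score found in both. Narrow regions extend to better ranks (smaller numbers) in both replicates, and 150 of the 233 lie above the dotted line, with the better rank in replicate 1. That order rests on the numbers in the names, and with tied scores averaged the better rank is in replicate 1 for 67 of them.

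The replicate centres matched to narrow regions lay close together. A match had to overlap the combined region, so the largest possible distance was smaller for a narrow region. These figures do not correct for that. The distance between the replicate 1 and replicate 2 centres had a median of 21.5 bp over narrow regions (quartiles 11.5 and 38) and of 47 bp over usual-width regions with the highest score (21 and 107). The gap was present within rank ranges. At ranks 1 to 100 the medians were 16 bp for narrow and 37 bp for the 8 usual-width regions, at ranks 101 to 250 they were 22.5 and 36.5 bp, and at ranks 251 to 500 they were 29.5 and 42.5 bp. At ranks 501 to 991 the medians of 56 and 54 bp did not separate the classes, and only 8 narrow regions had both centres there.

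The combined centre lay nearer to that of replicate 1. For narrow regions its distance to the replicate 1 centre had a median of 6.5 bp (quartiles 3 and 14.25), and to the replicate 2 centre of 17 bp (10.5 and 34.5). For all regions of the usual width the medians were 10.5 and 49 bp, and for those with the highest score 9.5 and 38 bp. Matching by overlap limits these distances more for narrow regions as well, and read depth is not in the lists. The part of each in these distances was not tested.

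**Figure D4:**
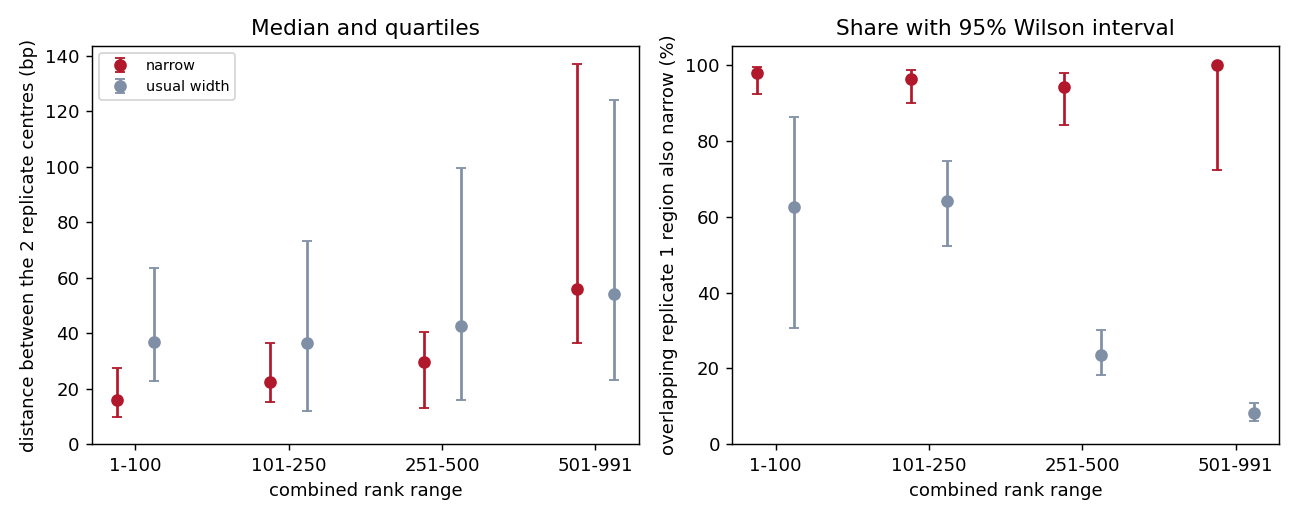
Left, the distance in bp between the replicate 1 and replicate 2 centres of the same combined region by combined rank range, as medians with quartiles. Right, the share of combined regions whose overlapping replicate 1 region was also narrow, with 95% Wilson intervals. Narrow regions have the smaller median distance in the ranges up to rank 500, though matching by overlap limits it more for them. Their share on the right is at least 94.1% in every range.

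The narrow class was spread over all chromosomes much as the whole list. Chromosome III carried the most, with 52, followed by I (45), IV (41), X (40), II (37) and V (24). As a share of each chromosome's combined regions this ran from 7.95% on V (5.4 to 11.6%) to 10.9% on III (8.45 to 14.1%), with overlapping intervals throughout. X held 16.7% of the narrow regions (12.5 to 22.0%) and 16.9% of those of the usual width. Among regions with the highest score, the narrow share was 22.1% on X (16.7 to 28.7%) and 24.2% on the autosomes (21.4 to 27.3%).

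By position along the chromosome, 120 of the 239 narrow regions (50.2%, 43.9 to 56.5%) lay in the central 50%, against 55.6% (53.6 to 57.7%) of the regions of the usual width. Against the usual-width regions with the highest score the figures were 50.2% and 56.8% (53.2 to 60.3%), and these intervals overlap as well. On X the central share was 14 of 40 (35.0%, 22.1 to 50.5%), against 46.8% (41.8 to 51.7%) for the usual width, and X had the lowest central share in both classes. On the autosomes it was 53.3% (46.3 to 60.1%) against 57.5% (55.2 to 59.7%). The outer parts were not filled alike. The left 25% of the chromosomes held 43 narrow regions and the right 25% held 76. More lay on the right on all 6 chromosomes, from 4 against 16 on II to 11 against 15 on X. On II the regions of the usual width leaned the same way, with 63 against 104, whereas on IV (80 against 56) and V (58 against 50) they leaned to the left. In all, regions of the usual width numbered 487 on the left and 522 on the right, and those with the highest score 151 and 175. Among those with the highest score, only IV had more on the left (27 against 21). On V they leaned to the right (9 against 15), as the narrow regions did. The difference between the classes was not tested.

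**Figure D5:**
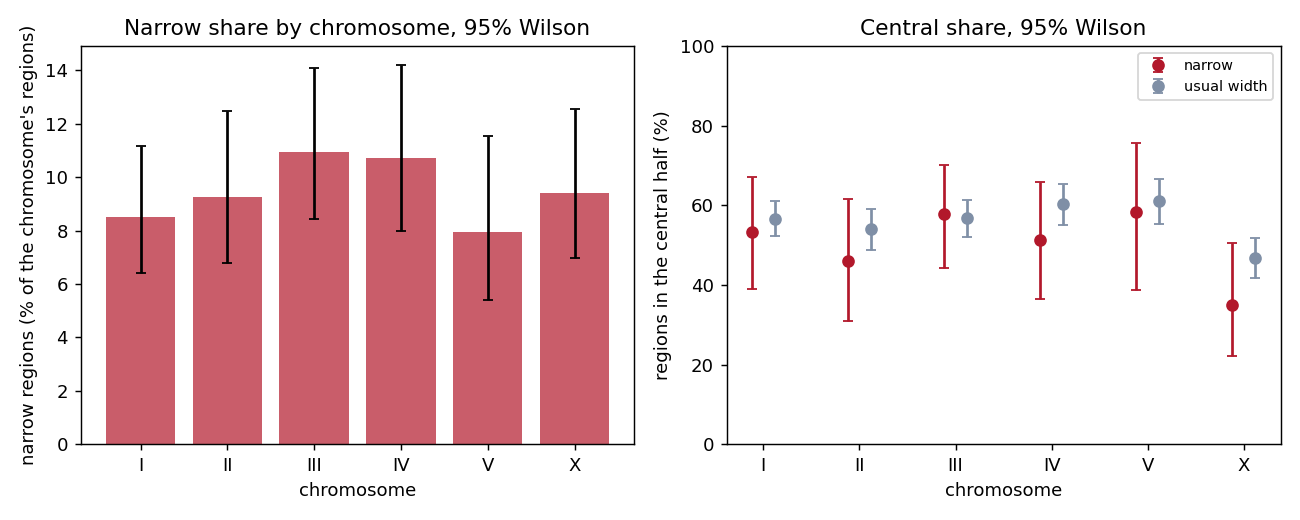
Left, narrow regions as a percentage of each chromosome's combined regions. Right, the percentage of narrow and of usual-width regions that lie in the central 50% of each chromosome. Bars are 95% Wilson intervals, and the narrow and usual-width intervals overlap on every chromosome.

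Narrow regions had close neighbours about as often as others. Another combined region lay within 1000 bp, edge to edge, of 33 of 239 narrow regions (13.8%, 10.0 to 18.8%) and of 305 of 2275 usual-width regions (13.4%, 12.1 to 14.9%). The neighbour overlapped the region itself in 14 narrow cases (5.86%, 3.52 to 9.59%) and in 5.67% of the usual-width regions (4.79 to 6.70%). A narrow region has less width with which to touch a neighbour, which these figures do not correct for. The median gap to the nearest combined region was 6564 bp for narrow and 8357 bp for usual-width regions. The nearest other narrow region lay at a median of 136585 bp. A larger distance follows from their number, since narrow regions are 239 of the 2515.

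The neighbours of narrow regions were mostly of the usual width, as are 2275 of all 2515 combined regions, and of low rank. Of the 33, 27 had a usual-width neighbour, and the narrow region ranked ahead of it in all 27, with median ranks of 143 and 1530. This follows largely from the ranks of each class. In 12 cases the narrow region and a usual-width region overlapped. An example on chromosome I is the 204-bp region at 16889 to 17092 (rank 143), which ran into a 464-bp region at 17007 to 17470 (rank 1530). Near the right end of X the 116-bp region at 17714460 to 17714575 (rank 671) lay across the start of a 464-bp region at 17714479 to 17714942 (rank 2071).

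The other 6 members formed 3 pairs of narrow neighbours, and 2 of the pairs involve the first 2 regions of the list. On V the regions of ranks 2 and 383 start at the same base, 9344137, and end at 9344588 and 9344592, so that nearly the same interval was listed under 2 numbers. On II the first region ended at 11980058, and a 295-bp region at 11980060 to 11980354 followed after a gap of 1 bp at rank 2274, the lowest of any narrow region. It touched the same replicate 1 region, of rank 4, with its centre 356 bp away, and its replicate 2 match ranked 14948. The remaining pair lay on IV at 14104781 to 14105025 (rank 191) and 14105675 to 14105811 (rank 268), 649 bp apart.

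The lowest-ranked members besides that second II region were the only other narrow regions below the highest score. The III region at 343729 to 343878, 150 bp wide and of rank 1836, ranked 801 in replicate 1 and 862 in replicate 2, with centres 279.5 bp apart. The IV region at 10734659 to 10734787, 129 bp wide and of rank 2030, ranked 2767 and 1400, with centres 22.5 bp apart. Both were narrow in replicate 1, at 169 and 127 bp.

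The narrowest regions, at 116 bp, lay in the middle of the tied ranks. The V region at 10813820 to 10813935 had combined rank 196, and the other V region, at 12728425 to 12728540, had rank 557. On IV they were at 15471548 to 15471663 (rank 306) and 11635768 to 11635883 (rank 318), on III at 7179742 to 7179857 (rank 362) and on II at 11537302 to 11537417 (rank 485). The X region at 17714460 was the seventh. None was narrow in replicate 2, and their widths in replicate 1 ran from 121 to 197 bp apart from the chromosome IV region of rank 318, which had the usual 460 bp there.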

How the data were processed

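Regions came from ChIP-seq of tagged CEH-39 in embryos. The authors deposited region lists on WormBase WS220, made with SPP and the irreproducible discovery rate, per the file headers and source fields. The score in each list was deposited without a named unit and served to order regions inside that list, with ties ordered by the number in the name. For versions, thresholds, the use of input and the making of the combined list, nothing is stated in the labels or headers used here. Read depth is unknown. Width is end minus start plus 1. Regions overlapping by at least 1 bp were matched, taking the best-ranked one where several overlapped. Chromosome span was the largest region end in any list. Wilson intervals (95%) take regions as independent and cover counting error only. Python 3.11.15, numpy 2.4.6, pandas 2.3.3, scipy 1.17.1 and matplotlib 3.10.9 were used, and the matching was tested on simulated data. Members, lists and comparisons were chosen with earlier results of these data known, and no test was run. The regions named are the 10 best-ranked, the narrowest (7 tie at 116 bp), the best of each chromosome, the 3 lowest-ranked, those next to the width limit and those in 1 replicate only. Members not narrow in replicate 1 and neighbouring pairs were added after their values were seen.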

Additional observations from a re-analysis of the deposited data

How the results depend on the processing

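Of 28 alternatives, 20 left a value within its 95% interval. With tied scores given their average rank, the median rank of narrow regions was 496 in the combined list, 666.5 in replicate 1 and still 238 in replicate 2, which turns the order of the replicates. In the combined list and replicate 1 nearly all members' regions share the highest score. Overlap with both replicates was 86.6% against the best 2515 regions of each. It was 68.8% for usual-width regions with the highest score, which ranked lower in the combined list. With either replicate left out the overlap of the members was 97.5 to 100%. A narrow match in a replicate was found for 97.5% of the members, and for 4.18 to 96.7% with a replicate left out. The lower value is without replicate 1, and replicate 2 holds 9 narrow regions. By construction, the central share was 36.0% for the central 33.3% of the chromosomes, and the neighbour share was 9.21% within 500 bp and 23.0% within 2000 bp. A limit of 80% of the usual width kept 235 members and moved none of the 4 values recomputed beyond its interval (rank, X share, central share and overlap with both replicates). Counting each narrow locus once (238 loci), added after the data were seen, moved none of the 4 values recomputed. No paired analysis was possible because only ChIP samples have a list in use and nothing was tested between groups. Promoter share was not run, for want of a WS220 annotation in use. Ties and unknown depth limit the ranking.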

Other observations

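Replicate 1 held 11 narrow regions that overlapped no combined region, at ranks 133 to 6718 of that list and 115 to 236 bp wide. The best placed was on mitochondrial DNA at 13053 to 13288, 236 bp wide and of rank 133. The next were on X at 11605665 to 11605888 (224 bp, rank 262) and on II at 11239004 to 11239197 (194 bp, rank 285). The other 8 ranked 1338 or lower. The X region of rank 262 ended just before the narrow combined region at 11605919 to 11606116, of combined rank 180. A region on IV at 10735063 to 10735177 (115 bp, replicate 1 rank 1338) lay somewhat farther from the narrow combined region at 10734659 to 10734787.

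Regions wider than the usual width were rarer than narrow ones. The combined list held 1, replicate 1 held 5 and replicate 2 held 0. The combined one, 471 bp wide on chromosome I, was 493 bp wide in replicate 1 at rank 68 and had the usual 416 bp in replicate 2 at rank 2153.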
